A study of Drosophila melanogaster with 16 samples.

Results

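The genes described here encode the protein subunits of the mitochondrial ribosome of Drosophila melanogaster. They are all genes whose symbol begins with mRpL or mRpS and a number, for large and small subunit proteins, on probe sets annotated with a single gene symbol. The rule found 69 genes among the 11982 genes with such a probe set, and each was read from its brightest probe set over all 16 arrays. There are 44 large subunit and 25 small subunit genes, and all 69 passed the filter on low values, which asked for a log2 signal of 4 or more on at least 2 arrays. Their 71 probe sets include a second one each for mRpS11 and mRpL47, and 2 probe sets that join a member with another gene were left out. By number alone, 40 were classed as having a bacterial counterpart, with numbers up to 36 in the large and 21 in the small subunit. The other 29 were classed as mitochondria-specific. Homology was not checked, so some of the 29 may have a bacterial counterpart.

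Mitochondria keep their own ribosomes, which translate the few messages of the mitochondrial genome into core subunits of the respiratory chain and ATP synthase. All of the ribosome's protein subunits are encoded in the nucleus, made in the cytosol and imported. In the fly, loss of mitochondrial ribosomal proteins slows growth and development, and the S12 protein encoded by technical knockout is a classic example.

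The study used wing discs and brain complexes dissected from larvae of the third instar, and measured their total RNA. The larvae were raised on standard media at 25 °C, and the arrays were single-colour Affymetrix Drosophila Genome 2.0 arrays. Wild-type larvae, whose strain the labels do not give, were 5 days past egg deposition, gave 2 arrays of discs and 2 of brains, and are labelled as free of tumours. Larvae carrying lgl27S3/lglE2S31, a combination labelled as null for l(2)gl and called lgl here, and larvae carrying scrib1/scrib2 were 9 days old. Each mutant gave 3 arrays of discs and 3 of brains, and both are labelled as bearing tumours. Both genes encode scaffold proteins of epithelial polarity whose loss lets discs and brains overgrow. Genotype and age changed together in every comparison with wild type and cannot be told apart, while lgl and scrib larvae were of the same age. Signals are log2 values made by the authors with GCRMA, which removes background, puts the arrays on one scale and joins the probes of each probe set into one value.

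The l(2)gl probe set read 10.51 and 10.72 in wild-type discs and 5.47, 2.99 and 2.42 in lgl discs. In brains it read 9.89 and 8.93 in wild type and 2.21, 2.82 and 2.21 in lgl mutants. The scrib probe set averaged 10.25 in wild-type and 10.11 in scrib discs, and 7.67 in wild-type and 7.63 in scrib brains, and the labels do not say that these alleles remove RNA. The tissue labels were borne out by markers: the median of 18 wing disc genes lay at 8.33 to 9.51 on the disc arrays and 5.21 to 6.52 on the brain arrays, and the median of 10 neuronal genes at 7.72 to 9.38 on brain arrays and at most 5.32 on disc arrays. For eIF-4a, a control gene with a 3′ and a 5′ probe set, the difference between these probe sets grows with RNA breakdown and ranged from 2.14 to 2.35 in wild-type and lgl discs and from 1.65 to 2.0 in scrib discs. The number of arrays limits the precision.

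Mitochondrial ribosomal protein messages were well measured in all groups. On each array the median over the 69 genes lay between 9.38 and 10.08, where the median over all 8819 tested probe sets lay between 8.24 and 8.47. The brightest probe sets by mean were those of mRpL30 at 11.49, mRpL33, mRpL12, mRpS21 and mRpS5, and the dimmest were those of mRpL11 at 8.30, mRpL21, mRpS6, mRpL32 and mRpS14. Probe sets differ in how well they bind, so these ranks do not order the genes by amount of RNA. The messages varied little from array to array. The median SD over the 16 arrays was 0.34 for members and 0.41 for the 4399 tested probe sets of like mean, between 8 and 12. The largest SDs were those of mRpS6 at 0.52, mRpS28 at 0.51 and mRpL32 at 0.48, and the smallest those of mRpL19 at 0.19, mRpL16 at 0.20 and mRpL22 at 0.21.

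**Figure D1:**
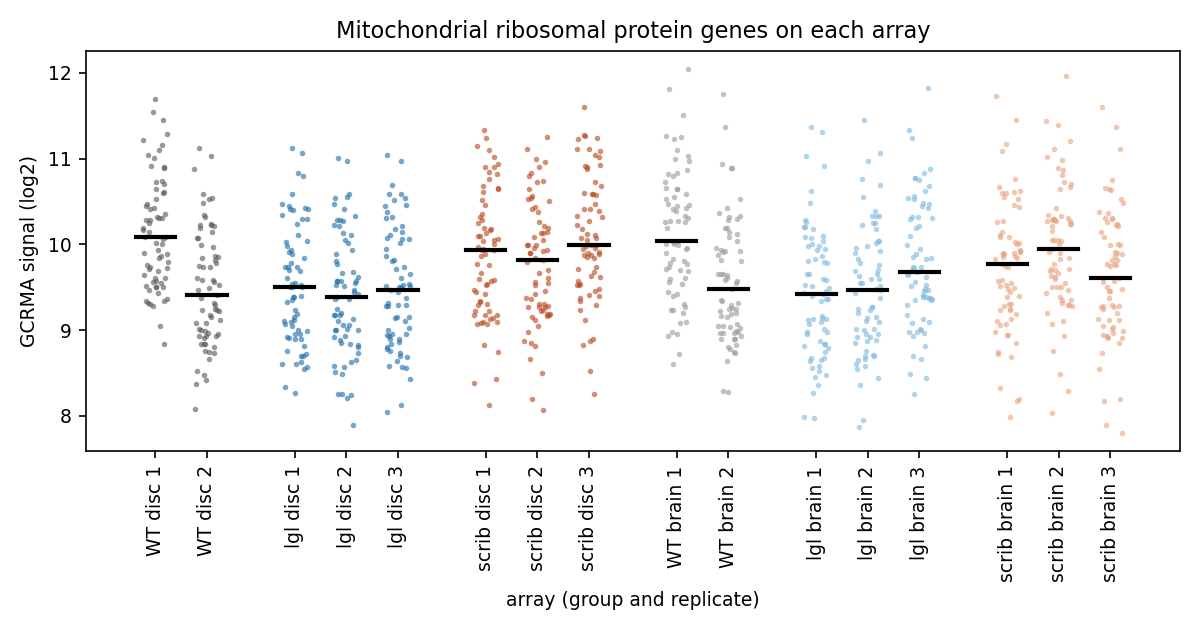
GCRMA log2 signal (vertical axis) of the 69 mitochondrial ribosomal protein genes on each of 16 arrays, with a point per gene and a bar at the array's median. The medians of the scrib discs, at 9.82 to 9.99, lie above those of the lgl discs, at 9.38 to 9.50, and replicate 1 of wild type lies above replicate 2 in both tissues.

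The wild-type arrays did not give a single reference level for these genes. The array median was 10.08 in wild-type disc replicate 1 and 9.41 in replicate 2, and 10.03 and 9.48 in the wild-type brain replicates. In discs 66 of 69 members were higher in replicate 1, by a median of 0.69, whereas over all tested probe sets the median difference was -0.02. In brains 64 of 69 were higher in replicate 1, by a median of 0.65 against 0.02 over all probe sets. In discs 53 members, 76.8%, were higher by more than 0.5, where 17.0% of all tested probe sets were. In brains 46 members, 66.7%, were, where 26.2% of all were.

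The shift covered nearly the whole group. In both tissues 63 members were higher in replicate 1, led by mRpL49, which differed by 1.25 in discs and 1.04 in brains, and mRpS28, which differed by 1.18 and 0.94. The members lower in replicate 1 of both tissues were mRpL22, a protein near the exit of the peptide tunnel, and mRpL38, a mitochondria-specific protein of the central protuberance. The mutant replicates lay closer together. The largest median difference between arrays of a mutant group was -0.40, for lgl brain replicates 1 and 3. The pooled SD of members was 0.50 in wild-type discs and 0.47 in wild-type brains, against 0.10 in lgl discs, 0.19 in scrib discs, 0.24 in lgl brains and 0.21 in scrib brains. The wider wild-type spread was general: the tested probe sets of like mean had 0.48 and 0.56 in wild-type discs and brains and 0.19 to 0.27 in the mutant groups.

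Other mitochondrial genes moved the same way between the wild-type replicates, and by less. Of 53 genes of the respiratory chain and ATP synthase 45 were higher in replicate 1 of the discs, by a median of 0.40, and 39 in that of the brains, by 0.41. The median of 31 cytosolic ribosomal protein genes differed by 0.09 in discs and 0.13 in brains. Markers of other tissues also differed between the disc replicates: the median of 5 fat body genes was 12.5 in replicate 1 and 9.66 in replicate 2, that of 5 muscle genes 9.55 and 6.29, and that of 6 salivary gland genes 5.00 and 9.23. In the brain replicates the fat body median ran the other way, at 7.48 and 8.61, and the medians of 3 tracheal genes, at 3.97 and 7.79, and of 5 ring gland genes, at 6.43 and 8.53, also differed. Their part in the level of the ribosomal protein messages was not tested, and in whole tissue fewer cells of a type and less RNA per cell cannot be told apart. The count of members called against wild type in each mutant group is therefore given below with its values without each wild-type array.

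**Figure D2:**
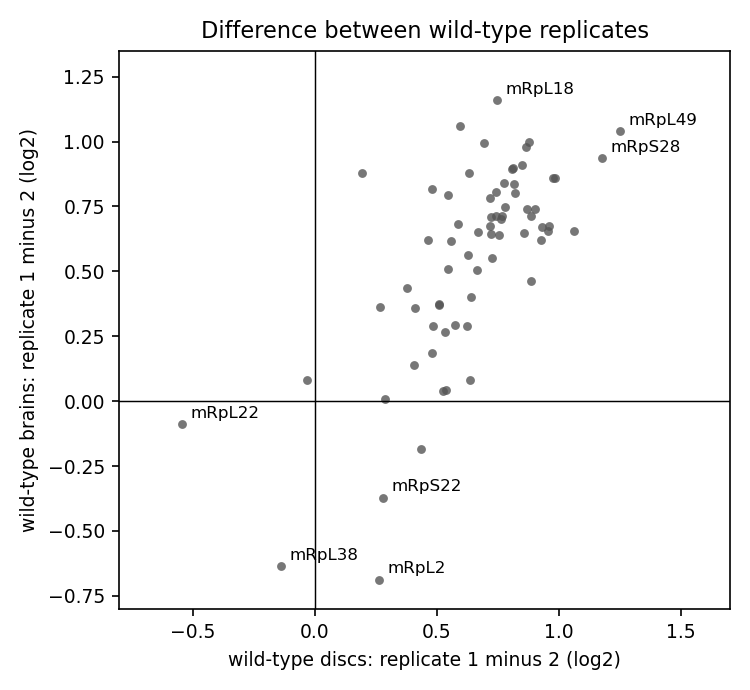
Difference in log2 signal between replicates 1 and 2 of wild-type discs (horizontal axis) and of wild-type brains (vertical axis), with a point per mitochondrial ribosomal protein gene. Most points lie above and to the right of 0, with 63 of 69 above 0 on both axes.

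The comparison of lgl with scrib at day 9 uses no wild-type means. Its SEs and p-values do draw on the wild-type arrays, since the spread was estimated over all 6 groups. Counts from fits on the compared groups alone are given further below. Mitochondrial ribosomal protein messages were lower in lgl than in scrib discs nearly throughout: the difference was below 0 for 67 of 69 members, 97.1%, where 48.7% of all tested probe sets lay below 0. The median difference was -0.42 for members and 0.01 for all probe sets, and the members ranged from -1.02 to 0.28. With limma, at a Benjamini-Hochberg adjusted p below 0.05 over all tested probe sets, 10 members were lower in lgl discs and 0 were higher. Over all tested probe sets 20.5% were called, 8.54% lower and 11.9% higher. All 3 lgl arrays lay below all 3 scrib arrays for 58 of 69 members and above them for 0, where 26.7% and 27.8% of all probe sets were so separated. At an unadjusted p below 0.05 there were 30 members, all lower, while 33.4% of all probe sets passed in either direction.

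The called members came from different regions of the ribosome. The large subunit ones included mRpL45, whose human counterpart lies at the exit of the peptide tunnel and holds the ribosome to the inner membrane. It read 9.00, 9.06 and 9.15 in lgl discs and 10.05, 9.93 and 9.95 in scrib discs. The groups were far apart relative to their spread, and lgl was the lower. The difference was -0.91 ± 0.16 (SE), 1.88-fold, with an adjusted p of 0.0014, and 0.0081 at most over 14 alternative settings.

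The central protuberance protein mRpL48 read 8.90, 8.89 and 8.84 in lgl discs and 9.59, 9.55 and 9.90 in scrib discs. All lgl arrays lay below all scrib arrays, and scrib replicate 3 was the highest. The difference was -0.81 ± 0.16 (SE), with an adjusted p of 0.0030 by limma.

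The small subunit protein mRpS29, the fly counterpart of the GTP-binding protein known in mammals as DAP3, read 9.35, 9.25 and 9.30 in lgl discs and 9.94, 9.80 and 9.99 in scrib discs. Both groups were tight and did not overlap. The difference was -0.61 ± 0.14 (SE), with an adjusted p of 0.010 by limma. These 3 genes, mRpL45, mRpL48 and mRpS29, were called in the disc comparison in all 15 settings.

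The peptide tunnel protein mRpL4 read 9.39, 9.36 and 9.31 in lgl discs and 10.09, 9.93 and 10.33 in scrib discs. Again the lgl arrays were close together and all below the scrib arrays. The difference was -0.76 ± 0.18 (SE), with an adjusted p of 0.011 by limma.

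The largest difference was that of mRpS28, a small subunit protein, which read 8.61, 8.49 and 8.55 in lgl discs and 9.54, 9.28 and 9.88 in scrib discs. The groups were separate, and the scrib arrays differed more among themselves than the lgl arrays. The difference was -1.02 ± 0.31 (SE), 2.02-fold, with an adjusted p of 0.035 by limma. The tunnel exit protein mRpL23 differed by -0.91 ± 0.27 (SE), and its adjusted p was 0.033 by limma. The other 4 called members, named from the list of calls after their values were seen, were mRpL39 at -0.77, mRpS22 at -0.57, mRpL1 of the mobile stalk at -0.52 and mRpL28 at -0.46.

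The members against the trend were few. Only mRpS6, a small subunit protein with a bacterial counterpart, and mRpL18 had differences above 0, at 0.28 and 0.01, and neither passed the test. mRpS6 read 8.61, 8.25 and 8.43 in lgl discs and 8.13, 8.08 and 8.25 in scrib discs. The higher 2 lgl arrays lay above all scrib arrays, and the lowest lay level with the highest scrib array.

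In brains the same comparison gave a smaller median, -0.22 for members against -0.04 for all tested probe sets. The difference was below 0 for 63 of 69 members, 91.3%, where 55.1% of all probe sets were. The test called 4 members lower in lgl brains and 0 higher, where 11.5% of all probe sets were called, 5.42% lower and 6.08% higher. The groups were separated with lgl lower for 17 members and with lgl higher for 1, where 22.2% and 18.5% of all probe sets were. The 4 called members, 5.8% of all members and near the share of all probe sets called lower, were among the 10 called in discs. In both tissues 62 members were below 0. How many of all probe sets were called lower, or lay below 0, in both tissues was not counted. The disc and brain arrays are separate samples of the same 2 genotypes.

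The brain calls were mRpL48, mRpL4, mRpS29 and mRpL45. mRpL48 read 8.98, 9.01 and 8.96 in lgl brains and 9.55, 9.83 and 9.61 in scrib brains. The groups did not overlap, as in discs. The difference was -0.68 ± 0.16 (SE), 1.60-fold, with an adjusted p of 0.014 by limma.

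mRpS29 read 8.87, 8.92 and 8.98 in lgl brains and 9.49, 9.50 and 9.48 in scrib brains. The arrays of each group were close together and the groups were separate. The difference was -0.57 ± 0.14 (SE), with an adjusted p of 0.025 by limma.

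mRpL4 read 9.13, 8.95 and 9.62 in lgl brains and 9.83, 9.95 and 9.90 in scrib brains. lgl replicate 3 stood above the other lgl arrays, still below all scrib arrays. The difference was -0.66 ± 0.18 (SE), with an adjusted p of 0.035 by limma. mRpL45 differed by -0.53 ± 0.16 (SE), with an adjusted p of 0.045 by limma.

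Leaving out any one lgl or scrib brain array left 0 to 2 members called in brains, where 6.8% to 8.8% of all probe sets were. Leaving out any one mutant disc array left 3 to 9 in discs, where 11.9% to 16.3% of all were. lgl brain replicate 3 was higher than replicate 1 for 63 of 69 members, by a median of 0.40, which placed it nearest the scrib brains.

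**Figure D3:**
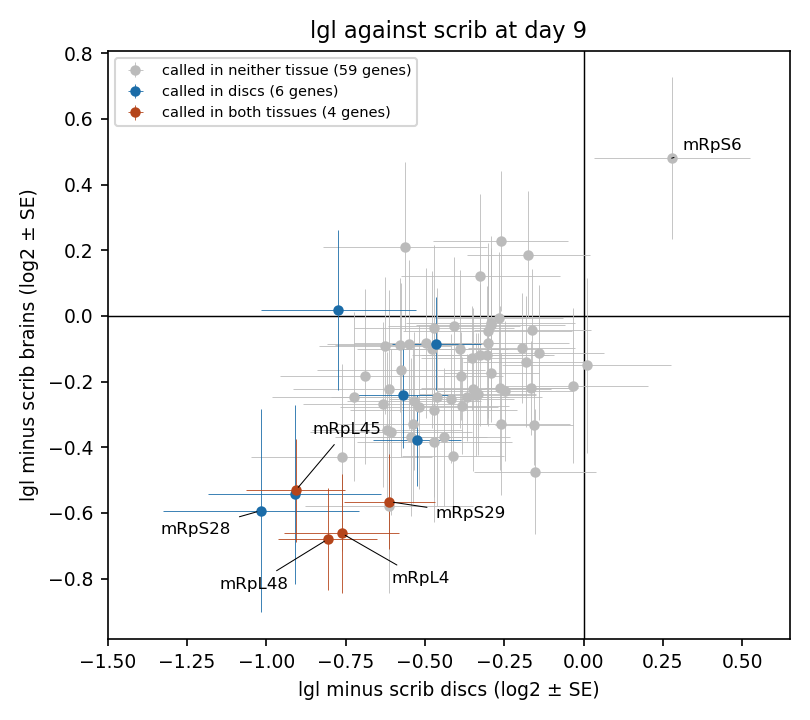
Difference in log2 signal between lgl and scrib mutants in discs (horizontal axis) and in brains (vertical axis), with a point per mitochondrial ribosomal protein gene and bars of 1 SE from limma. The 10 members called in discs are coloured, 4 of them called in brains too, and 62 of 69 points lie below 0 on both axes.

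The lower level in lgl discs ran through both subunits and all arms of the genome. The median difference was -0.41 over the 44 large subunit genes and -0.44 over the 25 small subunit genes. It was -0.36 over the 40 genes classed by number as having a bacterial counterpart, of which 4 were called. Over the 29 classed as mitochondria-specific it was -0.47, and 6 were called. By chromosome arm the medians ran from -0.34 over the 17 genes on 3L to -0.59 over the 10 genes on 2R, and 0 of the 11 genes on X was called by limma, with a median of -0.39. No difference between these classes was tested.

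Several other measures differed between lgl and scrib discs. The eIF-4a 3′ minus 5′ difference averaged 2.22 in lgl and 1.78 in scrib discs, and 2.24 and 1.79 in brains. The same difference for actin averaged 0.87 in lgl and 0.92 in scrib discs, and 0.81 and 0.97 in brains. That for GAPDH averaged 0.62 and 0.34 in discs, and 0.60 and 0.61 in brains. Of 9 glial markers 6 were called higher in lgl discs and 0 lower, and their summed signal was 13.2 to 13.4 on the log2 scale in lgl and 12.91 to 13.02 in scrib discs. The glial markers alrm, gcm and wrapper lay below 4 on all scrib disc arrays. Of 11 hemocyte markers 9 were called higher in lgl discs, with summed signals of 11.4 to 11.9 in lgl and 9.52 to 9.99 in scrib discs, and eater, lz and srp lay below 4 on all scrib disc arrays. Of 7 neuroblast markers 4, and of 10 neuronal markers 6, were called higher in lgl discs and 0 lower, and ase, pros and wor lay below 4 on all scrib disc arrays. The summed neuronal signal was 9.55 to 10.2 in lgl and 7.55 to 7.58 in scrib discs. In brains 1 of 9 glial, 1 of 7 neuroblast and 1 of 10 neuronal markers were called higher in lgl by limma, and 0 lower. Of 11 hemocyte markers 0 were called there. Of 4 eye markers 2 were called higher in lgl discs and 1 in lgl brains, and 0 lower. Over all probe sets 11.9% were called higher and 8.54% lower in lgl than in scrib discs, and 6.08% and 5.42% in brains. The part of these in the lower ribosomal protein messages was not tested.

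Against wild type, lgl discs had lower values for most members, but no member passed the test. The difference was below 0 for 65 of 69 members, with a median of -0.32 against 0.01 over all tested probe sets. With limma 0 members were called, where 18.1% of all probe sets were, 12.0% higher and 6.13% lower. At an unadjusted p below 0.05 there were 9, with 1 higher and 8 lower, where 31.3% of all were, and the lowest adjusted p was 0.058. All lgl arrays lay below both wild-type arrays for 22 members and above both for 1, where 22.4% and 26.0% of all probe sets were so separated.

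The size of the difference depended on the wild-type array. The lgl disc mean lay below wild-type replicate 1 for 66 members, by a median of 0.64 over all members, and below replicate 2 for 38, with a median difference of -0.03. It fell between the replicates for 30 members. Without wild-type disc replicate 2 the test by limma called 20 members, all lower, where 19.7% of all probe sets were called in either direction, and without replicate 1 it called 0, where 14.0% of all were.

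In scrib discs the direction of the group against wild type turned on the wild-type array. With both, 43 of 69 members lay above 0, with a median of 0.10 against 0.00 over all probe sets, and the median was 0.40 without replicate 1 and -0.27 without replicate 2. The test called 4 members, 3 higher and 1 lower, where 23.2% of all probe sets were called, 12.6% higher and 10.6% lower. All scrib arrays lay above both wild-type arrays for 10 members and below both for 2, where 25.2% and 22.6% of all probe sets did. The scrib mean lay between the wild-type replicates for 49 of 69 members.

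The rise with the lowest adjusted p was that of mRpL28, a large subunit protein with a bacterial counterpart. It read 10.41 and 10.14 in wild-type and 11.14, 10.90 and 11.22 in scrib discs. All scrib arrays lay above both wild-type arrays. The rise was 0.81 ± 0.16 (SE), 1.76-fold, with an adjusted p of 0.0029 by limma, and it missed the threshold in 1 of 14 alternatives, at 0.055.

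mRpS22, a mitochondria-specific small subunit protein, read 10.36 and 10.08 in wild-type and 10.84, 10.84 and 11.08 in scrib discs. The groups did not overlap. The rise was 0.70 ± 0.18 (SE), with an adjusted p of 0.014 by limma, and over the alternatives the adjusted p reached 0.10. mRpL45 was higher by 0.54 ± 0.17 (SE), with an adjusted p of 0.041 by limma, and was called in 6 of 15 settings.

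The fall was that of mRpS6, which read 9.51 and 8.52 in wild-type discs and 8.13, 8.08 and 8.25 in scrib discs. The wild-type replicates lay further apart than replicate 2 lay from the scrib arrays. The fall was -0.86 ± 0.27 (SE), with an adjusted p of 0.039 by limma, and it was called in 7 of 15 settings. Of all probe sets 16.4% to 18.7% were called when any one scrib disc array was left out. Without wild-type disc replicate 1 the test called 6 members higher and 0 lower, where 20.6% of all probe sets were called. Without replicate 2 it called 2 higher and 2 lower, where 19.3% of all were, and without any one scrib array 1 or 2 members.

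In lgl brains the group median was again below 0, at -0.34 against 0.04 over all probe sets, with 56 of 69 members below 0. The test called 7 members, 2 higher and 5 lower, where 25.3% of all probe sets were called, 14.0% higher and 11.3% lower. The arrays were separated with lgl lower for 19 members and higher for 4, where 21.9% and 25.5% of all probe sets were. As in discs, the lgl mean lay below wild-type replicate 1 for 58 members, with a median difference of -0.66, and below replicate 2 for 36, with one of -0.01.

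The falls included mRpL35, a large subunit protein with a bacterial counterpart. It read 10.38 and 9.88 in wild-type and 9.14, 9.15 and 9.40 in lgl brains. Both wild-type arrays lay well above the lgl arrays. The fall was -0.90 ± 0.19 (SE), 1.86-fold, with an adjusted p of 0.0049 by limma, and it was called in 12 of 15 settings.

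The other falls were mRpL32 at -0.91, whose counterpart in yeast and mouse is matured by the protease of the inner membrane that Spg7 helps to form, mRpS6 at -0.84, mRpS18B, one of several S18 proteins of animal mitochondria, at -0.75, and mRpL13 at -0.71. Their adjusted p values by limma lay between 0.034 and 0.041, and each was called in 7 of 15 settings.

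The rises in lgl brains were those of mRpL38 and mRpS22. mRpL38 read 8.61 and 9.24 in wild-type and 9.52, 9.55 and 9.69 in lgl brains. The lgl arrays were close together and above both wild-type arrays. The rise was 0.66 ± 0.18 (SE), with an adjusted p of 0.019 by limma. It ran from 0.34 to 0.98 over the alternatives, with an adjusted p of up to 0.20, and was called in 10 of 15 settings. mRpS22 rose by 0.56 ± 0.18 (SE), with an adjusted p of 0.040 by limma, and was called in 7 of 15 settings. Without wild-type brain replicate 2 the test called 2 members higher and 22 lower, where 42.7% of all probe sets were called, and the members' median was -0.66. Without replicate 1 it called 1 member, higher, where 13.7% of all were, and the median was -0.01.

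Scrib brains had the most calls among the mutant comparisons with wild type, 7 higher and 4 lower, where 34.8% of all probe sets were called, 19.7% higher and 15.1% lower. The median over members was -0.11 against 0.07 over all probe sets, with 46 of 69 below 0. All scrib arrays lay above both wild-type arrays for 8 members and below both for 6, where 28.1% and 22.6% of all probe sets did.

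The largest rise was that of mRpL38, which read 8.61 and 9.24 in wild-type and 9.89, 10.15 and 9.998 in scrib brains. Every scrib array lay above both wild-type arrays. The rise was 1.09 ± 0.18 (SE), 2.13-fold, with an adjusted p of 0.00065 by limma, and it missed the threshold in 1 alternative, at 0.060.

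mRpL4 read 9.08 and 8.89 in wild-type and 9.83, 9.95 and 9.90 in scrib brains. The groups were far apart relative to their spread. The rise was 0.91 ± 0.20 (SE), with an adjusted p of 0.0044 by limma.

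mRpS29 read 8.72 and 8.64 in wild-type and 9.49, 9.50 and 9.48 in scrib brains. Both groups were tight, the wild-type replicates included. The rise was 0.81 ± 0.16 (SE), 1.75-fold, with an adjusted p of 0.0022 by limma. It was the only member called in all 15 settings of this comparison, with 0.048 as the highest adjusted p. The further rises were mRpS22 at 0.80, mRpL45 at 0.76 and mRpL1 at 0.72, with adjusted p values of 0.0036 to 0.0053 by limma, and mRpL48 at 0.56, with 0.024.

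The largest fall was that of mRpS6, which read 9.82 and 8.96 in wild-type and 7.99, 8.04 and 8.19 in scrib brains. All scrib arrays lay below both wild-type arrays, whose replicates differed by 0.86. The fall was -1.32 ± 0.27 (SE), 2.50-fold, with an adjusted p of 0.0028 by limma, and it missed the threshold in 1 alternative, at 0.058. The other falls were mRpL32 at -0.86, mRpL35 at -0.80 and mRpL52 at -0.78. Without wild-type brain replicate 2 the test called 7 members higher and 16 lower, with a median of -0.40, where 43.3% of all probe sets were called. Without replicate 1 it called 8 higher and 1 lower, with a median of 0.20, where 28.1% of all were.

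Markers of other cells differed from wild type beside these genes. In discs 4 of 5 fat body markers were called lower in each mutant and 0 higher, with summed signals of 12.7 to 15.7 in wild-type, 10.04 to 10.77 in lgl and 9.57 to 9.90 in scrib discs, and none of the 5 lay below 4 throughout a group. Muscle markers were called lower for 3 of 5 in each mutant, and salivary gland markers for 4 of 6 in lgl and 3 of 6 in scrib discs. The muscle markers Act79B, Mlc2 and TpnC41C lay below 4 on all arrays, failed the filter and were not among the 5 tested. In lgl discs 5 of 9 glial, 5 of 11 hemocyte, 4 of 7 neuroblast, 4 of 10 neuronal and 2 of 4 eye markers were called higher. Among these lists only the neuroblast one also held a called fall, of 1 marker. Wing disc markers were called lower for 6 of 18 in lgl and 5 of 18 in scrib discs. Over all probe sets 12.0% were called higher and 6.13% lower in lgl discs, and 12.6% and 10.6% in scrib discs. In brains 6 of 10 neuronal markers were called lower in lgl and 7 of 10 in scrib mutants, and 5 and 4 of 7 neuroblast markers higher. Ring gland markers were lower for 4 and 3 of 5, tracheal markers higher for 2 of 3 in each, and hemocyte markers higher for 3 of 11 in each. Over all probe sets 14.0% were called higher and 11.3% lower in lgl brains, and 19.7% and 15.1% in scrib brains. The part of these cells in the ribosomal protein messages was not tested.

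Read across the 4 comparisons with wild type, few members moved repeatedly. These comparisons share the wild-type arrays of each tissue. mRpS22 was called higher in 3 of them, and mRpL38 and mRpL45 in 2. mRpS6 was called lower in 3, and mRpL32 and mRpL35 in 2. No member was called in all 4. How many of all probe sets were called in several of these comparisons was not counted. The repeated calls of members can therefore not be set against those of all probe sets.

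**Figure D4:**
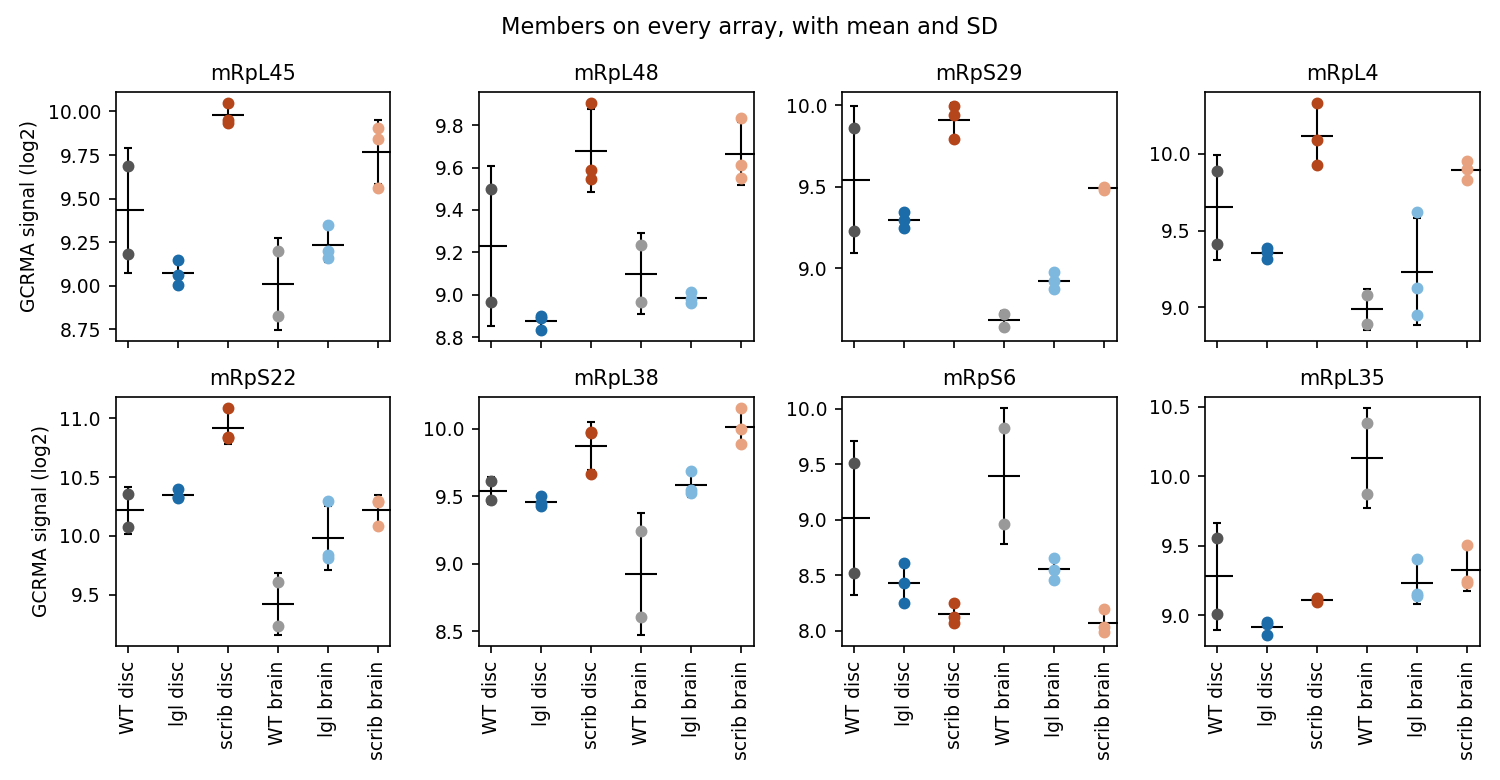
GCRMA log2 signal of 8 members on every array by group (points), with each group's mean and SD (bars). mRpL45, mRpL48, mRpS29 and mRpL4 are lower in lgl than in scrib mutants in both tissues, while mRpS6 is lowest in scrib mutants.

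Some members differed between discs and brains of the same genotype. In wild type 7 members were called, 5 higher and 2 lower in discs, where 42.8% of all probe sets were called, 20.5% higher and 22.3% lower. The disc arrays lay above the brain arrays without overlap for 6 members and below for 6, where 27.6% and 28.2% of all probe sets did. mRpS29 read 9.86 and 9.23 in wild-type discs and 8.72 and 8.64 in wild-type brains. Both disc arrays lay above both brain arrays. The difference was 0.86 ± 0.18 (SE), with an adjusted p of 0.0014 by limma. mRpS22 at 0.79, mRpL4 at 0.66 and mRpL38 at 0.62 were also higher in discs, and mRpL1 at 0.48 was the fifth. Without one wild-type array the median over members, -0.06 with all arrays, ran from -0.44 to 0.29. mRpL35 at -0.85 ± 0.21 (SE) was lower in discs, with an adjusted p of 0.0046 by limma, as was mRpS5, a small subunit protein with a bacterial counterpart, at -0.74.

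In lgl mutants 6 members were called between the tissues, 2 higher and 4 lower in discs, where 44.7% of all probe sets were called, 20.3% higher and 24.3% lower. The disc arrays were all above the brain arrays for 9 members and all below for 18, where 30.0% and 37.8% of all probe sets were. mRpS9, a small subunit protein with a bacterial counterpart, read 10.41, 10.27 and 10.51 in lgl discs and 9.93, 10.04 and 9.73 in lgl brains. The groups did not overlap. The difference was 0.50 ± 0.12 (SE), with an adjusted p of 0.0049 by limma, and it was called in all 15 settings.

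mRpL33 read 10.83, 10.56 and 10.69 in lgl discs and 11.36, 11.06 and 11.23 in lgl brains. Discs were the lower on every array. The difference was -0.52 ± 0.13 (SE), with an adjusted p of 0.0064 by limma, and it too was called in all 15 settings. mRpL3 at 0.41 was higher in discs, and mRpS31 at -0.64, mRpS21 at -0.53 and mRpL44, whose fold is that of a ribonuclease III, at -0.42 were lower.

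In scrib mutants 8 members were called, all higher in discs, where 46.2% of all probe sets were called, 20.1% higher and 26.0% lower. The disc arrays were all above the brain arrays for 14 members and all below for 7, where 27.2% and 35.9% of all probe sets were. The median over members was 0.15, with 49 of 69 above 0. mRpL39 read 10.52, 10.26 and 10.60 in scrib discs and 9.57, 9.91 and 9.27 in scrib brains. The groups were separate. The difference was 0.88 ± 0.24 (SE), 1.84-fold, with an adjusted p of 0.0099 by limma.

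mRpS22 read 10.84, 10.84 and 11.08 in scrib discs and 10.08, 10.29 and 10.29 in scrib brains. Every disc array lay above every brain array. The difference was 0.70 ± 0.16 (SE), with an adjusted p of 0.0031 by limma. mRpL39 and mRpS22 were called in all 15 settings. mRpL54 at 0.72 and mRpL20 at 0.64 came next. The second probe set of mRpS11 gave 0.45 with an adjusted p of 0.15, where the brighter gave 0.55 with one of 0.040 by limma.

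The mutant effects were not shown to differ between tissues for any member. The difference of the lgl effect between discs and brains was called by limma for 0 of 69 members, where 13.5% of all probe sets were called, and the lowest adjusted p was 0.073. At an unadjusted p below 0.05 there were 4 members, where 27.4% of all probe sets passed. The difference of the scrib effect was called by limma for 0 members, where 11.3% of all were, with 0.073 as the lowest adjusted p. Its median was 0.21, with 16 of 69 below 0, 23.2%, where 55.4% of all probe sets were. The median had no settled direction, at 0.57 and 0.55 without wild-type disc replicate 1 or brain replicate 2, and -0.15 and -0.07 without disc replicate 2 or brain replicate 1. That of the lgl effect ran from -0.38 to 0.31 without one wild-type array.

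The small subunit proteins S12 and S15 are encoded by technical knockout (tko) and bonsai, whose symbols the rule does not catch. tko read 11.00, 10.83 and 11.00 in lgl discs and 9.83, 9.94 and 10.18 in scrib discs, opposite in direction to most members. The groups did not overlap, and scrib was the lower. The difference was 0.96 ± 0.28 (SE), with an adjusted p of 0.030 by limma.

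In brains tko read 10.31, 10.12 and 10.92 in lgl and 8.97, 9.53 and 9.10 in scrib mutants. Again all scrib arrays were below all lgl arrays. The difference was 1.25 ± 0.28 (SE), with an adjusted p of 0.013 by limma. Against wild type tko was lower in scrib discs by -1.35 ± 0.31 (SE) and in scrib brains by -1.69 ± 0.31 (SE), with adjusted p values of 0.0084 and 0.0014 by limma. bonsai was lower than wild type in lgl brains, at -0.88, and in scrib brains, at -0.61, with adjusted p values of 0.011 and 0.045 by limma, and the difference between lgl and scrib discs was 0.01.

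Other mitochondrial genes were also mostly lower in lgl than in scrib mutants. Between lgl and scrib discs the medians were -0.22 over 53 genes of the respiratory chain and ATP synthase, -0.27 over 19 genes of import and protein quality control and -0.18 over 35 genes of mitochondrial translation and nucleic acid upkeep. Below 0 lay 47 of the 53, 16 of the 19 and 24 of the 35. The last list includes tko and bonsai, and tko is among its genes called higher in lgl than in scrib discs. The median over 31 cytosolic ribosomal protein genes was -0.07. In brains the medians of these lists were -0.18, -0.18, -0.29 and -0.05, where that of the members was -0.22. In discs limma called 1 higher and 3 lower, 0 higher and 1 lower, 2 higher and 2 lower, and 0 either way in these lists. Over all probe sets 11.9% were called higher and 8.54% lower there. In brains it called 0 either way, 1 higher and 0 lower, 1 higher and 3 lower, and 0 either way. Over all probe sets 6.08% were called higher and 5.42% lower in brains. TFAM, which packages mitochondrial DNA, was lower in lgl than in scrib discs by -0.76 ± 0.13 (SE), with an adjusted p of 0.0012 by limma. The protease gene Lon at -0.56, SdhB at -0.74, ND-15 at -0.77 and ND-18 at -0.59, the last 3 encoding subunits of respiratory complexes, were also lower. The isoleucyl-tRNA synthetase gene IleRS-m was higher, at 0.84.

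Against wild type limma called 2 of the 35 upkeep and translation genes higher and 0 lower in lgl discs, where 12.0% and 6.13% of all probe sets were. It called 4 and 4 in scrib discs, where 12.6% and 10.6% of all were, 5 and 3 in lgl brains, where 14.0% and 11.3% were, and 8 and 5 in scrib brains, where 19.7% and 15.1% were. These lists and tko were tested with both wild-type arrays and not without each. mtDNA-helicase, which unwinds mitochondrial DNA for replication, was higher in all 4 mutant groups, at 0.79 in lgl discs, 1.10 in scrib discs, 1.14 in lgl brains and 1.74 in scrib brains. Its adjusted p values by limma were at most 0.0040. The elongation factor gene mEFTu2 was higher in scrib discs, at 0.93, and scrib brains, at 1.29, and PolrMT, the mitochondrial RNA polymerase, in scrib brains, at 0.93.

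Of the 53 genes of the respiratory chain and ATP synthase 12 were called lower and 0 higher in lgl brains, where 11.3% of all probe sets were called lower, and 12 lower and 3 higher in scrib brains, where 15.1% were called lower. In lgl and scrib discs 2 and 4 were lower and 0 higher, where 6.13% and 10.6% of all were lower. COX7A, a cytochrome c oxidase subunit, fell by 0.79 in lgl brains and by 0.60 in scrib brains, and Cyt-c1 of the cytochrome bc1 complex by 0.63 and 0.55. Of the import and quality control genes, Spg7 rose by 1.45 in scrib discs and 1.47 in scrib brains. Tim17b of the inner membrane translocase fell by 0.53 in lgl discs, 0.56 in scrib discs and 0.57 in scrib brains. The wild-type brain replicates of the respiratory genes differed by a median of 0.41, and their part in these calls was not tested.

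**Figure D5:**
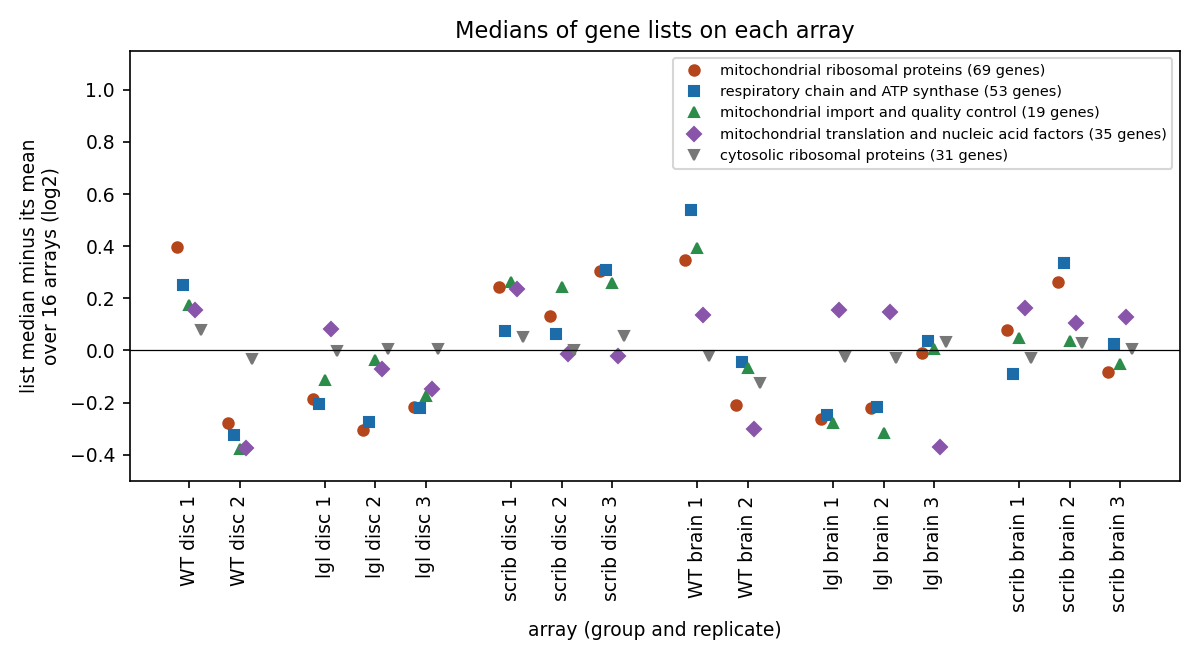
Median log2 signal of 5 gene lists on each array, each minus its own mean over 16 arrays. Mitochondrial ribosomal proteins (69 genes) lie below 0 on the lgl disc arrays and above 0 on the scrib disc arrays, and the 31 cytosolic ribosomal proteins lie near 0 on most arrays.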

How the data were processed

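The labels gave the groups. The deposited values are log2 signals that the authors made with GCRMA, per the submitters' processing notes, whose version is not given in the sources used here. Their lowest value on any array was 2.21. No array was left out. Gene symbols came from the platform annotation and chromosome arms from the supplied RefSeq table. Of 18952 probe sets, 13647 carried 1 symbol, 402 several, 4720 none, and 183 were controls.

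The tests came from limma 3.58.1 (R 4.3.3), with one model of 6 group means and 10 residual degrees of freedom, over the 8819 probe sets that passed the filter, and 11 contrasts. A call is a Benjamini-Hochberg adjusted p below 0.05 within a contrast over all 8819. Folds come from group means. SEs share one estimate of spread per probe set over all groups. The labels do not say that replicates were separate dissections, so the p-values cover only the spread between these arrays, which may be technical.

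The members, lists and markers were chosen with earlier results of these data known. The naming rule took the 5 brightest and 5 dimmest members, the 3 with the largest and smallest SD, up to 6 called rises and falls per comparison with wild type with separate arrays, up to 4 each way in other contrasts, and up to 3 genes per list and contrast. mRpL48 in scrib brains, mRpL1 between wild-type tissues, mRpL18, tko, bonsai, the extremes of the wild-type replicates and the members drawn per array were named after their values were seen. The test was tried on simulated data. No sequences were used here.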

Additional observations from a re-analysis of the deposited data

How the results depend on the processing

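The counts of called members depend on how the spread is estimated and on the wild-type arrays, and the cause was not tested. With array weights by group, the calls were 42, all lower, for lgl against scrib discs, where 40.0% of all probe sets were called, 8 for lgl against scrib brains, where 21.8% were, 20 and 14 between tissues in lgl and scrib mutants, where 61.0% and 55.1% were, and 1 in wild type, where 20.9% were. Against wild type they were 1 in scrib discs, 0 in lgl brains and 3 in scrib brains. Of all probe sets 9.98%, 2.88% and 8.8% were called there. In fits on the compared groups alone they were 37, all lower, for lgl against scrib discs, where 33.9% of all probe sets were called, 7 for brains, where 17.7% were, 16 between lgl tissues, where 57.8% were, and 0 by limma between wild-type tissues, where 16.2% were. Against wild type these fits gave 0 in scrib discs, 0 in lgl brains and 2 in scrib brains, where 9.7%, 6.7% and 10.9% of all probe sets were called. Without a filter 2 members each were called in scrib discs and in lgl brains against wild type and in lgl against scrib brains. Of all probe sets 9.2%, 9.4% and 3.8% were called there. A trended and robust variance called 1 in lgl discs against wild type, where 19.2% of all probe sets were called. Leaving out both replicate 1 wild-type arrays, added after seeing the data, gave a median over members of 0.40 in scrib discs and -0.03 in lgl discs against wild type.

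Leaving out each array in turn gave these ranges of calls. The share of all probe sets called also changed, and is given above for mutants against wild type without each wild-type array. Against wild type they were 0 to 20 in lgl discs, 1 to 6 in scrib discs, 1 to 24 in lgl brains and 9 to 23 in scrib brains. For lgl against scrib they were 3 to 9 in discs, all lower, and 0 to 2 in brains. Of all probe sets 11.9% to 16.3% were called in discs and 6.8% to 8.8% in brains. Between tissues they were 5 to 11 in wild type, 2 to 5 in lgl and 2 to 7 in scrib mutants, and for the differences of effects 0 to 4 and 0 to 5. Of all probe sets 36.9% to 40.0% were called between lgl tissues in these fits, and 39.8% to 43.3% between scrib tissues. A lone wild-type array was assumed to vary like the other groups. The fit with replicate number as a block called 0, 3, 6 and 12 members in lgl discs, scrib discs, lgl brains and scrib brains against wild type, and 12 and 3 for lgl against scrib in discs and brains. Between tissues it called 7, 6 and 9. The numbers were not shown to pair the samples, since arrays of the same number in different groups had a median correlation of 0.04 in their deviations from group means.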

Other observations

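Among 5 measured genes for regulators of growth or of nuclear genes for mitochondria, called differences between lgl and scrib discs were limited to ewg, a counterpart of vertebrate NRF1, which was higher in lgl discs by 1.27 ± 0.34 (SE), with an adjusted p of 0.020 by limma. It averaged 7.77 in lgl, 6.49 in scrib and 6.31 in wild-type discs, and 10.91 to 11.33 in the brain groups, where the fly gene is known from neurons. The neuronal markers were also higher in lgl than in scrib discs, and their part in the ewg level was not tested. Dref, known for promoters of growth and replication genes, differed by 0.01 between lgl and scrib discs, and Ets97D, a counterpart of the GABP alpha subunit, by -0.34 with an adjusted p of 0.31 by limma. Ets97D was higher than wild type in scrib brains, by 0.69 ± 0.24 (SE), with an adjusted p of 0.045 by limma. The remaining 2 genes, crc and foxo, were called in 0 of the 6 comparisons between genotypes by limma.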
